A study of Mus musculus with 3 samples.

Results

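The genes Gad1, Gad2, Reln, Pvalb and Sst mark the inhibitory interneurons of the cortex. Their members here were all array probes that lay inside 5 fixed windows on mouse build mm9, 1 window around each gene. Membership was set by position, and the choice was made with earlier results of these data known. This gave 106 of the 409597 placed probes, which fell into 6 of the 28880 tiled regions on the array. A tiled region is a run of 3 or more probes in which no step from start to start exceeds 500 bp. Gad2 had 35 probes in 2 regions, Reln 17 probes in 1 region, Pvalb 37 probes in 2 regions and Sst 17 probes in 1 region. The window of Gad1 held 0 probes, the nearest ones lay 87.8 kb to its left and 53.5 kb to its right, and Gad1 was therefore not analysed here. The windows held tiles of 4 of the 5 genes.

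The series mapped 5-methylcytosine in the frontal cortex by methylated DNA immunoprecipitation, in which sonicated DNA is captured with an antibody and compared with input DNA. The bound DNA (Cy5) and the input DNA (Cy3) came from naive male C57BL/6 mice aged 2 months, and the 3 arrays were labelled as replicates, each from pooled DNA of 3 mice. There was 1 group, so the comparisons were of bound with input DNA, and of regions or stretches with each other, and dye and enrichment cannot be told apart. Each value is the log2 ratio of bound over input signal minus the median of the array's probes, so 0 is the median probe and not an unmethylated state, and errors are SDs over the 3 arrays. The number of arrays limits the precision of every value.

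GABA is the main inhibitory transmitter of the cortex, and it is made from glutamate by the glutamate decarboxylases that Gad1 and Gad2 encode. Parvalbumin (Pvalb), a calcium-binding protein, and somatostatin (Sst), a peptide transmitter, mark separate interneuron classes, and reelin (Reln), a secreted glycoprotein that guides neuronal layering during development, is made by several kinds of cortical interneurons in the adult. These neurons are a minority in the cortex, and the arrays measured DNA of the whole tissue, so methylation in few cells and partial methylation in many cannot be told apart. RNA was not measured, and the tissue label was not set against marker expression. Methylated cytosines in mammals lie mostly in CpG dinucleotides, and the antibody captures more DNA where methylated CpGs are dense.

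Promoter sequences of the 4 tiled genes are shown because the approximate mm9 start of each lay within 5000 bp of a tile. The sequences also differ in their CpGs, in which methylated cytosines mostly lie. They are from RefSeq (build GRCm38.p6), run 5′ to 3′ on the gene's strand from 250 bases before to 50 bases after the start, and have every CpG in capitals. The tiles are on the older build mm9, so these positions were not laid over the probes. Gad2 lies at chr2:22622077-22622376 on the plus strand, and the others lie on the minus strand: Reln at chr5:22344656-22344955, the upstream Pvalb promoter at chr15:78206351-78206650, the downstream Pvalb promoter at chr15:78204188-78204487, and Sst at chr16:23890795-23891094.
Gad2: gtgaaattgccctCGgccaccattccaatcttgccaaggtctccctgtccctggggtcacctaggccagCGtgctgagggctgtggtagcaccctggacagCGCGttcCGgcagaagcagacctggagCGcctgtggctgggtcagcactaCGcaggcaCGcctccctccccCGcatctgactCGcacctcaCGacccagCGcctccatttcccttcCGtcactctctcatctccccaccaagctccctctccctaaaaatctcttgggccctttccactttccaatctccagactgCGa
Reln: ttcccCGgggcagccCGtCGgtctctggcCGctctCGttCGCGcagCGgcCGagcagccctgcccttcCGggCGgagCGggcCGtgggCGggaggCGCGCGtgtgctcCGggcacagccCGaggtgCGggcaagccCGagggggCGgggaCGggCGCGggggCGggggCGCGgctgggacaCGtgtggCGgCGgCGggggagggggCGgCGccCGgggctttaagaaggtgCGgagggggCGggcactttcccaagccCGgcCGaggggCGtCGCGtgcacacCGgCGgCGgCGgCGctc
Pvalb, upstream: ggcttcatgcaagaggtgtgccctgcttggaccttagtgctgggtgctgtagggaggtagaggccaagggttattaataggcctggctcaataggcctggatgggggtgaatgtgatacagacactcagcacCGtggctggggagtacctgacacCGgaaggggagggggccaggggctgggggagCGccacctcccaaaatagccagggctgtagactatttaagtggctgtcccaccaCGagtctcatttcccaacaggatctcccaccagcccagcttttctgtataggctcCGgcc
Pvalb, downstream: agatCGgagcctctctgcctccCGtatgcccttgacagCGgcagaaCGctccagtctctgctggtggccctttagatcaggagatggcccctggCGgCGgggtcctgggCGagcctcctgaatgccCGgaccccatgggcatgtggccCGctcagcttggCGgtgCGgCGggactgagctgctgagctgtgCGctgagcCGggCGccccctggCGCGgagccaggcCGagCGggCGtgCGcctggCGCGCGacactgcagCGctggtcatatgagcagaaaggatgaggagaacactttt
Sst: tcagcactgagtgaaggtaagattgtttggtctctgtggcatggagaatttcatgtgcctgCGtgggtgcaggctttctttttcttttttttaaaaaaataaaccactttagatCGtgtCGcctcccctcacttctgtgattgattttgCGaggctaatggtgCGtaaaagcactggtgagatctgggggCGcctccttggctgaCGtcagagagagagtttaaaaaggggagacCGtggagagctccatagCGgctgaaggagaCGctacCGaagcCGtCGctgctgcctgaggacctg

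The Reln sequence held 47 CpGs, more than 98.6% of the 32841 RefSeq promoters of this length. The downstream Pvalb promoter held 25 CpGs and the upstream one 5. Gad2 held 14 and Sst 13, against a median of 7 over all promoters. Motifs were searched on both strands by exact letters. The cAMP response element TGACGTCA, the site of the CREB factor that was first described in the somatostatin gene, began 48 bases before the Sst start and was found in 1.79% of promoters. The GC box GGGCGG occurred 6 times in the Reln sequence, and 35.7% of promoters hold it. The CCAAT box occurred 2 times in Gad2 and is held by 37.4% of promoters. The letters TATAAA, held by 13.6% of promoters, were in none of these 5 sequences. A match or its absence describes the letters only.

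Over all 28880 regions, 28% were called higher than the median probe and 38.1% lower (limma, Benjamini-Hochberg adjusted p under 0.05). Of the 6 regions of these genes, 2 were higher, 3 lower and 1 neither. Their median was -0.29, beside -0.11 over all regions. Of the 106 probes, 23 (21.7%) were higher and 28 (26.4%) lower, beside 22.4% and 23.6% of all probes. These shares lay near those of the whole array. The regions differed among themselves: the 2 higher regions were the start regions of Sst and Pvalb, the lower ones the start region of Gad2 and the second tiles of Gad2 and Pvalb, called internal. Bound signal was not above background on any array for 28 of the 106 probes (31.7% of all placed probes), 8 of them among the 28 lower ones. A ratio at such a probe is only an upper limit where its input is bright, and has no order where its input is dim too. With normexp background correction the 5 called regions kept sign and call at smaller values: 0.29 for the Sst start region, 0.31 and -0.19 for the Pvalb start and internal regions, and -0.50 and -0.17 for the Gad2 start and internal regions. With the deposited log2 ratios the Pvalb start region was 1.06, the internal Pvalb region -0.36 and the Gad2 start region -0.63.

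**Figure D1:**
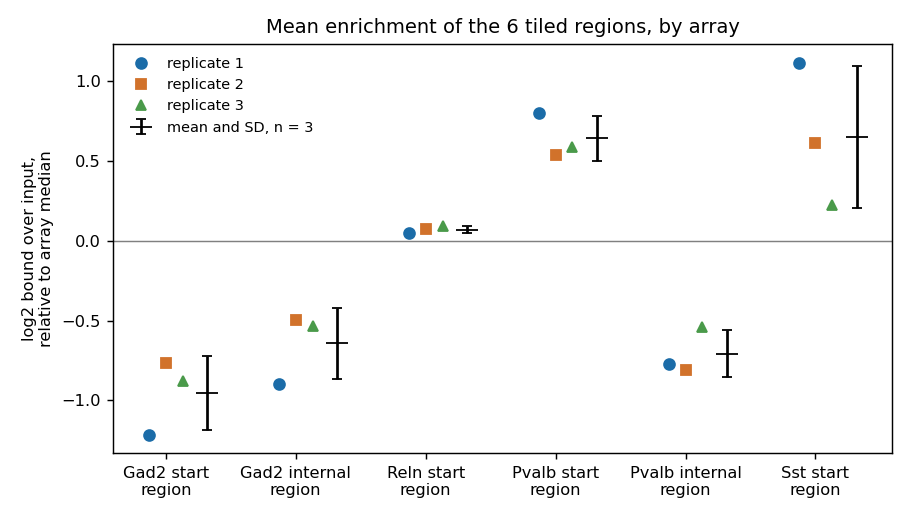
Mean log2 ratio of bound over input DNA in each of the 6 tiled regions (y axis, relative to the array's median probe) on each of the 3 arrays (points), with the mean and SD beside them. The Gad2 regions and the internal Pvalb region lie below 0 on every array, the Pvalb and Sst start regions above 0 on every array, and the Reln start region between 0.05 and 0.09.

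Gad2 encodes GAD65, the decarboxylase held mainly at axon terminals. Its start region (chr2:22476561-22477896, 19 probes), the tile nearest to the gene's start, had log2 ratios of -1.22, -0.77 and -0.88 on the 3 arrays. All 3 arrays were below 0, and the region stood at percentile 9.24 of all regions, among the less enriched. The mean was -0.95 ± 0.23 (SD, n = 3), 1.94-fold less bound than input DNA relative to the median probe (limma adjusted p = 4.19e-05). Mean signals before centring were 8.78, 9.17 and 9.05 for bound DNA and 10.19, 10.13 and 10.01 for input DNA on the log2 intensity scale. No probe of this region was higher, 8 were lower, and 11 did not pass.

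The ratio was lowest in the middle of this tile. Positions are given in bp from the middle of a tile, negative upstream by the strand of the gene. Probes within 200 bp of its middle averaged -1.89, -0.998 and -1.60 on the 3 arrays, against -0.67, 0.04 and -0.10 for probes more than 500 bp away. The centre was lower than the edges on every array, by -1.26 ± 0.23 (adjusted p = 0.00116). Over the array, 32.5% of 21320 such regions were lower at the centre and 17% higher. With the authors' deposited log2 ratios in place of the scanner signals this difference was -0.68 and lost the call (adjusted p = 0.0548). A run of 5 neighbouring lower probes reached from -6 to 272 bp and averaged -1.75 ± 0.56, an upper limit, since bound signal of its probe at 218 bp was not above background on any array. The lowest probe, at -130 bp, had -2.42, -2.18 and -1.65, and its bound signal was above background on 2 arrays. The highest, at -568 bp, averaged 0.39 with both channels at background.

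The internal Gad2 region (chr2:22520960-22522371, 16 probes) lay 44437 bp downstream of the start region, middle to middle. Its log2 ratios were -0.90, -0.50 and -0.53, again below 0 on every array (-0.64 ± 0.22, adjusted p = 0.000758, percentile 20.8). The start region was lower than this internal region on every array, by -0.32, -0.27 and -0.34. An exact two-sided permutation test that turns the signs of the 3 array differences gave p = 0.25, the smallest it allows. With the deposited log2 ratios the difference turned to 0.31, and with probes of input above background to 0.26, so no direction is given for it. This was the dimmest of the tiles, with mean signals of 7.09 for bound and 7.89 for input DNA on the log2 scale, and bound signal passed background in 9 of its 48 measurements. Over its 6 probes with input above background the regional mean was -1.34. Of its probes, 6 were lower and 2 higher, and both higher ones were at background in both channels on every array. Its lowest probe, at -15 bp, had -2.12, -2.36 and -2.34.

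Reelin binds lipoprotein receptors on migrating neurons and modulates synapses in the adult. The Reln start region (chr5:21850083-21851642, 17 probes) had log2 ratios of 0.05, 0.07 and 0.09, close to the median probe on every array (0.07 ± 0.02, adjusted p = 0.606, percentile 60.4). This mean covered opposite stretches, since 6 of its probes were higher and 4 lower. Its sign turned under 4 other settings of the processing, to between -0.64 and -0.026, so no direction is given for the tile as a whole.

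When the tile was split into 3 parts of equal length by the strand of the gene, the downstream part had 1.16, 0.61 and 0.91 on the 3 arrays, against -2.19, -1.37 and -1.69 for the upstream part. The mean of the downstream part exceeded that of the upstream part on every array. Single probes overlapped: on replicate 2 the upstream probe at -750 bp (-0.03) lay above the downstream one at 758 bp (-0.09). The middle part, at 0.78 ± 0.07, lay close to the downstream part. Downstream minus upstream was 2.65 ± 0.68 (adjusted p = 4.5e-05). Such steps were common, since 53.9% of 23829 regions on the array had a called difference between their outer parts in either direction. The Reln step kept its direction and its call under each of the 8 other settings that changed its value, at 1.45 to 2.98. With both channels above background it had no value.

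The step lay between neighbouring probes. The probe at -296 bp had -2.49, -2.02 and -2.29, and the next one, at -185 bp, had 0.45, 0.33 and -0.01, and on every array both channels of both probes were above background. Upstream of it a run of 4 lower probes, from -645 to -296 bp and against the direction of the rest, averaged -2.01 ± 0.36. That mean is an upper limit, since the probe at -645 bp had bound signal not above background on any array. The run held the lowest probe of the region, at -500 bp, with -2.40, -2.54 and -2.27. Downstream of the step, 3 neighbouring higher probes from -126 to -4 bp averaged 1.28 ± 0.11. The highest probe, at 682 bp, had 1.66, 2.04 and 2.18. Of the 6 higher probes, the one at 578 bp was at background in both channels. The probe at -58 bp had input not above background on any array, and its bound signal passed on 2 arrays. At -126 bp each channel passed on 2 arrays.

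**Figure D2:**
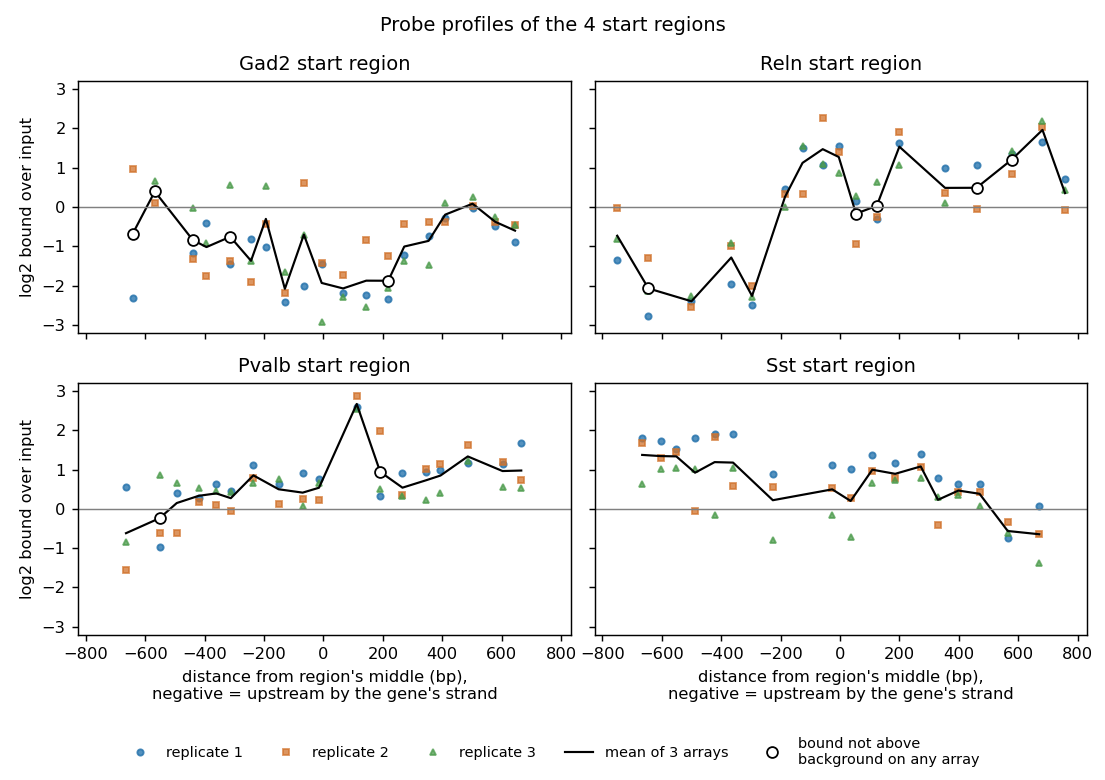
Log2 ratio of bound over input DNA (y axis) of every probe in the 4 start regions, by its distance in bp from the middle of the region (x axis, negative upstream by the gene's strand). Coloured points are the 3 arrays, the line is their mean, and open circles mark probes whose bound signal was not above background on any array. Gad2 dips at its middle, Reln steps up between -296 and -185 bp, and Pvalb has its peak of 2.67 at 112 bp. Sst is lower at its downstream than at its upstream end, without a steady fall.

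Parvalbumin buffers calcium in fast-spiking basket and chandelier cells. The Pvalb start region (chr15:78036642-78038024, 18 probes) had log2 ratios of 0.80, 0.54 and 0.59, above 0 on every array. Its mean was 0.64 ± 0.14, 1.56-fold more bound than input DNA relative to the median probe (adjusted p = 0.000509, percentile 83.7). Of its probes, 6 were higher, none was lower and 12 did not pass. The sign rests on the zero point: centred on the mode of each array, which lay 0.64 to 0.81 above the median, the mean was -0.073.

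The internal Pvalb region (chr15:78034449-78035885, 19 probes) lay 2166 bp farther along the gene, middle to middle, with a gap of 756 bp. RefSeq gives Pvalb 2 promoters, 2163 bp apart on its build, of which the downstream one is richer in CpGs (25 against 5 above). These distances were nearly equal, so internal need not mean away from a promoter. Whether this tile covers the downstream promoter was not tested. The internal region had log2 ratios of -0.77, -0.81 and -0.54, below 0 on every array (-0.71 ± 0.15, adjusted p = 0.000257, percentile 17.9). Of its probes, 10 were lower, 2 higher and 7 neither. Restricted to probes whose 2 channels both passed background on every array, the mean was -0.018 and lost the call.

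Within Pvalb, the start region exceeded the internal region on every array, by 1.57, 1.35 and 1.13. The mean difference was 1.35 ± 0.22, which is 2.55-fold (p = 0.25 in the same exact permutation test). Its direction held under 9 other settings chosen after the data were seen, but its size shrank to 0.50 with normexp and to 0.78 with both channels above background. Among the probes, 1 of the start region stood highest. At 112 bp of the start region it had 2.58, 2.88 and 2.54 (2.67 ± 0.18), the highest value among all 106 probes. Farther along, 4 neighbouring higher probes from 394 to 666 bp averaged 1.03 ± 0.31. The lowest probe, at -665 bp, averaged -0.62 with values from -1.56 to 0.56.

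In the internal region a run of 6 lower probes reached from -177 to 217 bp and averaged -1.61 ± 0.21. The probes at 106 and 217 bp had bound signal not above background on any array, so their means of -2.12 and -1.75, and the mean of the run, are upper limits. Beyond this run the ratios were higher again, with 1.40, 1.32 and 0.94 at 425 bp and 1.11, 0.99 and 1.00 at 696 bp, near the 3′ end of the tile. The probe at 543 bp, between them, was lower but at background in both channels. The centre of this region was lower than its edges, at -1.58 ± 0.37 against -0.36 ± 0.28 (difference -1.22 ± 0.61, adjusted p = 0.00312). No centre probe had bound signal above background on every array, so with both channels above background this difference had no value. The downstream part of the region averaged 0.26 ± 0.04, against -0.76 ± 0.50 for its upstream part (difference 1.02 ± 0.54, adjusted p = 0.00679). Without replicate 2 that difference was 0.91 and lost the call (adjusted p = 0.0533).

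The start region ran the other way at its centre, at 1.01 ± 0.10 against 0.27 ± 0.33 at its edges (difference 0.74 ± 0.37, adjusted p = 0.0266). Its downstream part averaged 0.90 ± 0.31, against 0.16 ± 0.36 for its upstream part (difference 0.73 ± 0.56, adjusted p = 0.035). Neither call held throughout. Without replicate 2 the differences were 0.54 and 0.47, and without replicate 3 the centre was higher by 0.80, each without a call, and after loess within arrays the centre was lower than the edges by -0.088. With the deposited log2 ratios the differences were 0.19 and 0.33, without a call. With both channels above background the centre was higher by only 0.061, also without a call.

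**Figure D3:**
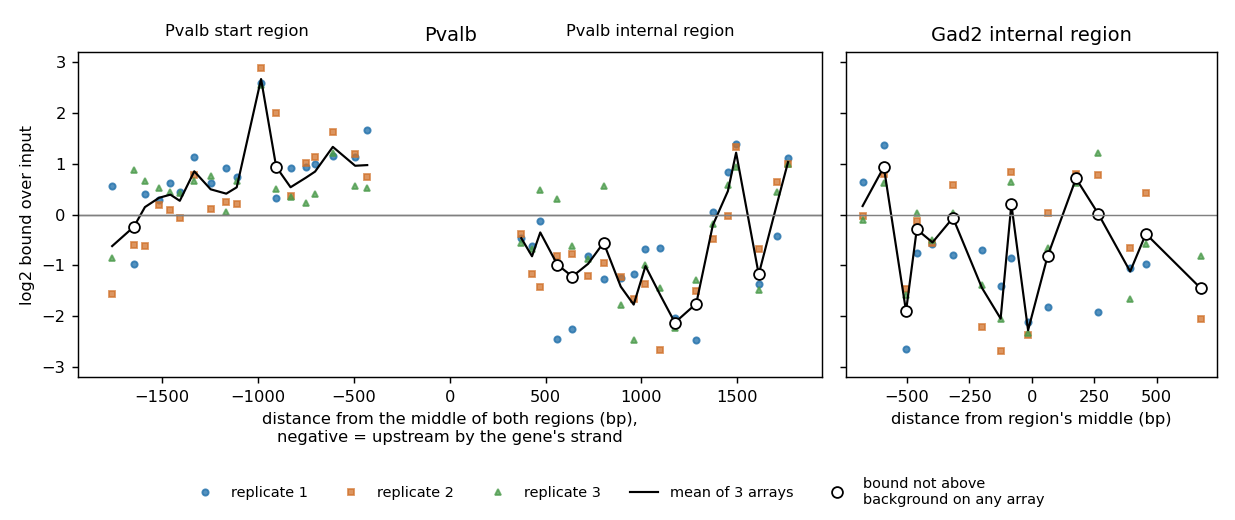
Log2 ratio of bound over input DNA (y axis) of the probes in both Pvalb regions, by distance in bp from the midpoint of the 2 regions (left), and in the internal Gad2 region, by distance from its own middle (right), negative upstream. Points are the 3 arrays, lines their mean, open circles probes with bound signal not above background on any array. The Pvalb start region lies mostly above 0 and the internal one mostly below, with a return above 0 at its downstream end, and 10 of the 16 probes of the internal Gad2 region carry open circles.

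Somatostatin is released by dendrite-targeting interneurons such as Martinotti cells. The Sst start region (chr16:23890729-23892115, 17 probes) had log2 ratios of 1.12, 0.61 and 0.23. All arrays were above 0, with the widest spread of the 6 regions: the mean was 0.65 ± 0.45, beside a median SD of 0.19 over all regions (adjusted p = 0.00291, percentile 83.9). Without replicate 1 the mean was 0.42, over 1.5 times smaller, and still called. Centred on the mode it was -0.064. Of its probes, 7 were higher, none was lower and 10 did not pass, and every probe had bound signal above background on at least 1 array.

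Enrichment in this tile was lower in its downstream than in its upstream part, but it did not fall steadily from probe to probe. The downstream part had 0.46, 0.09 and -0.08 on the 3 arrays, against 1.78, 1.13 and 0.76 for the upstream part. Downstream was lower on every array, by -1.06 ± 0.24 (adjusted p = 0.00277), a spread well below that of the regional mean. The call and direction held under each of the 8 other settings that changed the value, at -1.21 to -0.51. The middle part was intermediate, at 0.56 ± 0.59, and the centre did not differ detectably from the edges (difference 0.08 ± 0.19, adjusted p = 0.807). The upstream end held 3 neighbouring higher probes from -666 to -551 bp, averaging 1.35 ± 0.40, and the highest of them had 1.80, 1.67 and 0.64. Farther along, 3 probes from -226 to 36 bp averaged 0.31 ± 0.79 and did not pass. A further run of 3 higher probes from 109 to 272 bp averaged 0.99 ± 0.30. The lowest probe, at 671 bp, had 0.08, -0.64 and -1.38 and did not pass.

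**Figure D4:**
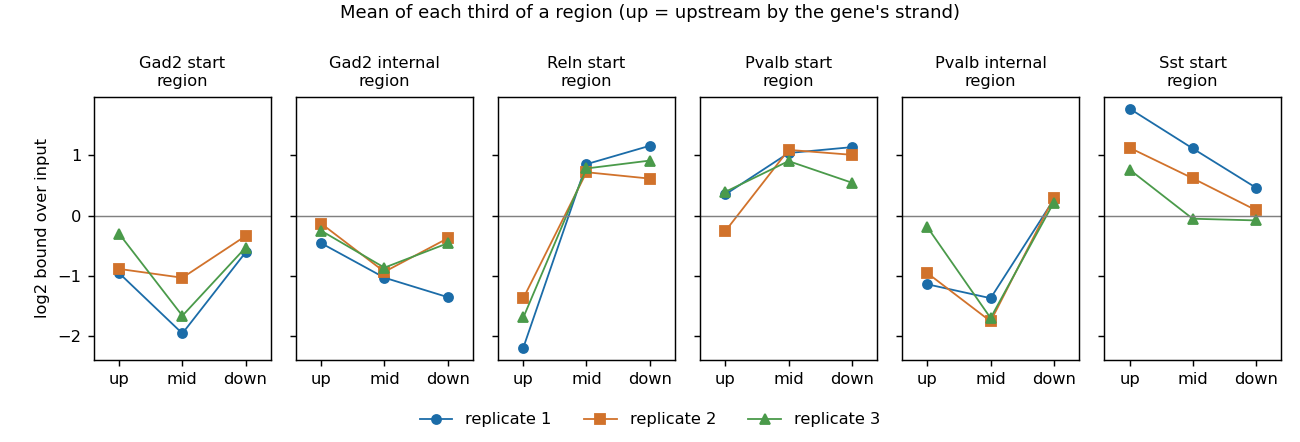
Mean log2 ratio of bound over input DNA (y axis) in the upstream (up), middle (mid) and downstream (down) part of each of the 6 regions, parts of equal length by the strand of the gene. Each line is 1 of the 3 arrays. Reln steps up between its upstream and middle parts, Sst falls from upstream to downstream on every array, and the Gad2 start region and the internal Pvalb region are lowest in the middle on every array.

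Across the 6 regions, downstream and upstream parts differed with a call in 4: Reln and both Pvalb regions were higher downstream and Sst was lower there. The Gad2 start region (0.22 ± 0.40, adjusted p = 0.465) and the internal Gad2 region (-0.45 ± 0.39, adjusted p = 0.139) did not pass. For the Gad2 start region other settings gave calls in both directions, so the main value settles none. Over the array, 27.7% of regions were higher at the right end by coordinate and 26.2% lower. Centre and edges differed with a call in 3 of the 6, the Gad2 start and internal Pvalb regions with a lower centre and the Pvalb start region with a higher one. Of the 21320 regions tested in this way on the array, 32.5% had a lower centre and 17% a higher one. For Reln the centre minus edges difference was 0.52 ± 0.29 (adjusted p = 0.0946) and for the internal Gad2 region -0.38 ± 0.13 (adjusted p = 0.198), and each was called under some other settings.

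In order of their mean log2 ratio the start regions ran Sst (0.65), Pvalb (0.64), Reln (0.07) and Gad2 (-0.95). The 6 pairs were compared array by array in the same way, and the differences had 1 sign on all arrays in 5 of them. Sst and Pvalb were the exception, with differences of 0.31, 0.07 and -0.36 (0.01 ± 0.34, exact permutation p = 1), so these neighbours in the order did not differ beyond their spread. Sst exceeded Gad2 by 1.61 ± 0.65, Pvalb exceeded Gad2 by 1.60 ± 0.37 and Reln exceeded Gad2 by 1.03 ± 0.22. Over Reln, Sst was higher by 0.58 ± 0.47 and Pvalb by 0.57 ± 0.16. Each of these 5 had an exact permutation p = 0.25 and an adjusted p = 0.3 over the 6 pairs, so none could pass in this design. The regions share their arrays and their zero point.

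The start regions were also set beside the 20 nearest tiled regions outside the gene's window, 10 on either side, as a description of the surrounding level. The internal regions of Gad2 and Pvalb were therefore not among them. The 10 on a side reached between 277 kb (right of Pvalb) and 2197 kb (right of Sst) beyond the window. The Gad2 start region (-0.95) lay below 17 of its 20 neighbours, whose median was -0.14 and whose range was -1.21 to 0.88. The Sst start region (0.65) lay above 15 of its neighbours (median 0.25, range -1.52 to 2.23), and the Pvalb start region (0.64) above 13 (median 0.09, range -1.89 to 3.37). The Reln start region (0.07) lay above 12 and below 8 (median -0.07). Of the neighbours, 7 were called higher and 9 lower around Gad2, 5 and 8 around Reln, 8 and 7 around Pvalb, and 9 and 6 around Sst. These counts are each out of 20, beside shares of 28% higher and 38.1% lower over all regions. By gene order in RefSeq, the adjacent protein-coding genes are Myo3a and Apbb1ip for Gad2, Slc26a5 and Orc5 for Reln, Ift27 and Ncf4 for Pvalb, and Rtp4 and Rtp2 for Sst. Mir3967 overlaps Gad2, and Gm16111, Dnaja1-ps and LOC115490264 overlap Reln. The tiles were not assigned to any of these genes.

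**Figure D5:**
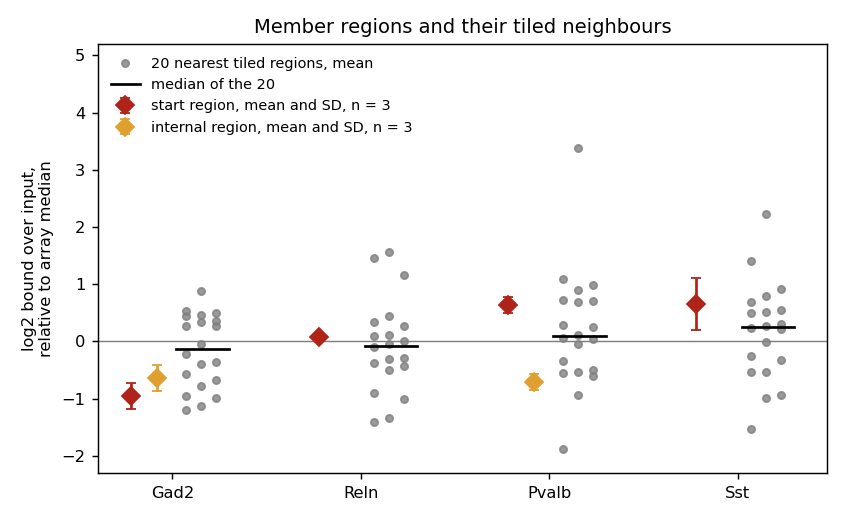
Mean log2 ratio of bound over input DNA (y axis) for each gene (x axis). The start region is red and, for Gad2 and Pvalb, the internal region is yellow, each with its SD over 3 arrays. Grey points are the 20 nearest tiled regions outside the gene's window, with their median as a bar. The Gad2 start region lies below 17 of its 20 neighbours, and all 4 start regions lie within the range of their neighbours.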

How the data were processed

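Per the file headers, Agilent Feature Extraction 10.7.3.1 read 420288 spots of a custom mm9 design on each array and gave processed intensities after subtracting background, removing a spatial trend and scaling the dyes by a linear factor. Per the file headers, a further column holds log10 ratios of red over green, which was not used. The deposited table of log2 ratios followed the log2 ratio of bound over input medians after background subtraction (r of 0.999 or more), so it runs bound over input, its column medians were -0.97, and the sources used here do not give its normalisation. Per the labels, both fractions were amplified by whole-genome amplification, which can change how sequences are represented.

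Log2 of bound over input intensity was taken per spot and centred on each array's median over non-control probes, repeated probes were averaged, and 409559 placed probes had a value on all arrays. Bound signal was above background for 47.4% to 66.0% of probes per array and input signal for 69.0% to 83.3%, and arrays correlated over tiled regions with r = 0.90 to 0.93. Tests were limma 1-group fits against 0 with Benjamini-Hochberg adjustment over the whole table (limma 3.58.1, R 4.3.3), tested on simulated data, and exact sign-flip permutation tests. Centre and edges were compared in regions of at least 8 probes and 1000 bp, and outer parts in regions of at least 9 probes, with at least 2 probes in each part.

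A gene's start region was the tile nearest to its approximate mm9 start and within 5000 bp of it, since no mm9 annotation was used here. The Reln position came with its window and the others from general knowledge. The other tile of a gene is called internal by position. Members, lists and tests were chosen with earlier results of these data known. The named probes are the highest and lowest of each start region and runs of at least 3 called probes against the rest of their region. Other named probes and runs, the differences within a gene and the counts over members were chosen after their values were seen. The titles number the arrays 1 to 3, but the descriptions call each biological replicate 1, so p-values measure the spread between these arrays, which may be technical. Alternatives were background correction by normexp (offset 50, on spot medians, since the files used here gave no mean signal), loess, the deposited log2 ratios, centring on the mode, filters on dim probes, joining distances of 300 and 1000 bp, medians of probes, at least 5 probes and leaving out each array.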

Additional observations from a re-analysis of the deposited data

How the results depend on the processing

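Among the recomputed values that a setting changed at all, direction and call held in 56 of 66 region means, 34 of 50 centre minus edges differences and 39 of 50 differences between outer parts. Pairs cannot be called with 3 arrays, and kept their direction in 48 of 54 such values. The Gad2 start region kept both under each of 11 (-1.67 to -0.50). The Reln start region was -0.059 with normexp and -0.026 without probes dim in both channels, neither called. It was called lower at -0.64 centred on the mode and at -0.34 with input above background, and called higher at 0.28 after loess. Centred on the mode the Pvalb start region was -0.073 and the Sst start region -0.064. That setting moved the median of all regions by -0.72, loess by 0.11 and the deposited log2 ratios by 0.18. It called 8.67% of all regions higher and 76.8% lower. With both channels above background, 51.6% of all regions were higher and 22.7% lower, the internal Pvalb region was -0.018 and the internal Gad2 region had no value. Joining at 1000 bp merged both Pvalb regions, at -0.051 with an outer part difference of -1.33. Centred on the mode, 3 of 106 probes were higher (7.81% of all probes). With both channels above background, 14 of 49 were lower (22.3% of all). Leaving out 1 array gave 9 to 14 higher and 17 to 26 lower probes, beside 10.4% to 15.5% and 14.3% to 21.1% of all probes.

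Sst minus Pvalb turned to -0.020 with normexp, -0.15 with the deposited ratios, -0.095 with input above background and -0.10 with both channels above background, and ran from -0.14 to 0.19 when 1 array was left out. Gad2 start minus internal turned to 0.31 with the deposited ratios and 0.26 with input above background. Downstream minus upstream of the Gad2 start region was called at -0.27 with normexp and, the other way, at 1.01 with the deposited ratios and 0.70 with input above background, and was -0.53 without a call after loess. That of the internal Gad2 region turned to 0.033 with normexp and 0.34 with the deposited ratios. Centre minus edges of Reln turned to -0.0042 with normexp and -0.26 with the deposited ratios, without a call, and was called at 0.79 after loess, 0.89 with input above background and 1.15 without dim probes. That of the internal Gad2 region turned to 0.0053 with the deposited ratios and was called at -0.65 after loess and -1.05 with input above background. The Pvalb start region turned to -0.088 after loess, and Sst to -0.015 with the deposited ratios. Leaving out 1 array gave -0.031 to 0.14 for Sst. Except for the merged regions, the causes were not tested. No paired analysis was possible because there was 1 group, so replicate numbers had no second group to pair with, and regions were compared within each array. Dim bound signal limits how low a ratio can be measured, and the choice of zero limits the calls of a higher region.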
